A study of Mus musculus with 10 samples.

Results

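The cytochromes P450 of families 1 to 3 were described in the livers of old mice labelled as lacking Arg2 in hepatocytes and of their floxed littermates. The genes were taken from the count table by name, as the protein-coding genes called Cyp followed by 1, 2 or 3, a letter and a number, with at least 10 counts over the 10 libraries. This rule found 56 genes among the 55487 genes of the table. Cyp2w1, with 8 counts, and Cyp2b23, with 6 counts, matched the name but missed the minimum. Of the 56 genes, 48 passed the filter on low counts and were tested, and the other 8 (Cyp2b19, Cyp2c65, Cyp2c66, Cyp2j7, Cyp2j11, Cyp2j12, Cyp2j13 and Cyp2t4) reached at most 0.352 CPM, the count scaled to library size, in any library.

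Liver RNA selected with oligo-dT was sequenced in 5 libraries from mice with a hepatocyte-specific deletion of Arg2 (LKO) and 5 libraries from littermates with floxed Arg2 alleles (Flox). All were of the strain given as C57B/6J, shared cages, ate normal chow and were 22 months old. The sources used here do not name the driver of the deletion, and the labels do not say that each library is a separate mouse, so p-values measure only the spread between these libraries. The LKO libraries held 43331354 to 53891438 counts and the Flox libraries 44926666 to 54951415. Arg2, which encodes the mitochondrial arginase, had 10 counts over the 5 LKO libraries and 9 over the 5 Flox libraries, with 0 counts in 3 libraries of each group, where 0 allows up to 3 counts. The count of Arg2 therefore could not check the labels. The Y-linked Ddx3y had 1607 to 2903 counts and Xist 0 to 16 counts per library, the pattern of male animals throughout.

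Cytochromes P450 are haem enzymes of the endoplasmic reticulum that insert an oxygen atom into lipophilic molecules, with electrons passed on from cytochrome P450 reductase and cytochrome b5. Families 1 to 3 carry most of the oxidation of drugs, toxins and other foreign compounds in liver, and several members also act on steroids, retinoids, bile acids and fatty acids. Their genes are known for induction through the receptors Ahr, CAR and PXR, for higher levels near the central vein of the lobule, for sex bias set by the rhythm of growth hormone, and for lower levels during inflammation.

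What all these enzymes share is the loop whose cysteine holds the haem iron. A search of the longest open reading frame of each gene for the loop's pattern found it once in 54 of the 56 genes, and the pattern searched did not match in Cyp2b10 and Cyp2s1. The stretch of 30 coding bases around the cysteine is shown for the gene with the highest level per kb of exon in each main subfamily, to show how far the subfamilies have diverged at the site that makes them 1 enzyme class. Sequences are from the GENCODE M21 transcripts, 5′ to 3′ on the coding strand, with the cysteine codon in capitals.
Cyp1a2: ttcggcttgggaaagcgccggTGCattggg
Cyp2a5: ttttccattggaaaacggtatTGTttcgga
Cyp2b9: ttctccacaggaaagcgcattTGTcttggt
Cyp2c29: ttttcaacaggaaaacggattTGTgctgga
Cyp2d26: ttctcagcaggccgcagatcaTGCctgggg
Cyp2e1: ttttctgcaggaaagcgcgtgTGTgttgga
Cyp2f2: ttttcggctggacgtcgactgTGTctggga
Cyp2j5: ttctcaatgggaaaaagagctTGTcttgga
Cyp3a11: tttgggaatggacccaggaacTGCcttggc
The cysteine codon was TGC in Cyp1a2, Cyp2d26 and Cyp3a11 and TGT in the other 6. Over the longest coding transcript, Cyp2a12 at 383 CPM per kb would lead the Cyp2a subfamily in place of Cyp2a5 at 304.

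Libraries Flox 2 and Flox 3 stood apart from the rest in their acute phase genes. The summed level of 26 acute phase genes was 24750 to 47110 CPM in the LKO libraries, against 118400 CPM in Flox 2, 157200 CPM in Flox 3, 64490 CPM in Flox 4 and 23980 to 32490 CPM in Flox 1 and Flox 5. All 26 of these genes had lower fitted levels in LKO (median log2 fold change -1.46, and -0.38 without Flox 2 and Flox 3), among them Lrg1 at -2.05 ± 0.63, Serpina3n at -1.77 ± 0.56 and the serum amyloid Saa2 at -5.70 ± 1.80. None passed the test, and 20 had an unadjusted p under 0.05 (edgeR). Over all genes tested, 4.33% were lower in LKO at that p, and 48.4% had higher fitted levels in LKO. The list was drawn up with earlier results of the same libraries known. Of 11 hepatocyte markers 8 had higher fitted levels in LKO (median log2 fold change 0.17, and 0.028 without Flox 2 and Flox 3), and 0 passed. Their sum was 143300 to 171600 CPM in LKO and 75210 to 136600 CPM in Flox, lowest in Flox 3. Alb alone made up a large part of it, at 99570 to 122600 CPM in LKO and 35270 to 93500 CPM in Flox. Fgb, at a log2 fold change of -0.71, stands in both the hepatocyte and the acute phase list. Results on the P450 genes are therefore given with and without Flox 2 and Flox 3. The part of the acute phase genes in them was not tested. In whole liver, fewer cells of a type and less RNA per cell cannot be told apart.

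The 56 genes took 1.84 to 2.06% of the counts of the LKO libraries (mean 1.93 ± 0.0946%, SD, n = 5), against 1.56 to 2.35% in Flox (1.85 ± 0.348%, n = 5). Flox 1 held the highest share of all libraries at 2.35%, and Flox 3 and Flox 2 the lowest at 1.56% and 1.62%. Without Flox 2 and Flox 3, the Flox mean was 2.03%. The LKO range lay inside the Flox range, so the groups overlapped. Cyp2e1 held 26.6% of all counts of the 56 genes and Cyp3a11 17.9%, and the 10 genes with most counts held 79.7%.

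**Figure D1:**
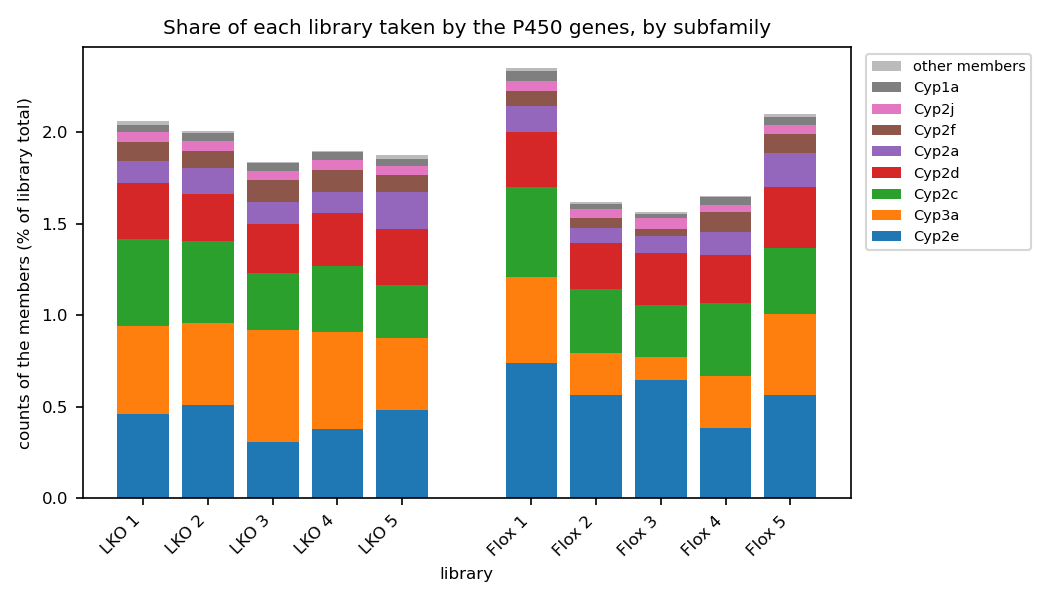
Counts of the P450 genes as a percent of each library's total, stacked by subfamily, with LKO libraries left of Flox libraries. The LKO bars reach 1.84 to 2.06% and the Flox bars 1.56 to 2.35%; the Cyp3a segment is smallest in Flox 3 at 0.127%.

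Per kilobase of exon, levels spanned from 2336 CPM per kb for Cyp2e1, over all 10 libraries, to 0.00881 CPM per kb for Cyp2b19. In that order Cyp3a11 followed at 674.6 CPM per kb, then Cyp2d26 at 619, Cyp2f2 at 458 and Cyp2d10 at 439. Cyp2c29 stood at 360.5, Cyp2a5 at 295, Cyp2j5 at 194 and Cyp1a2 at 194 CPM per kb. Cyp2e1 was at 2011 ± 385 CPM per kb in LKO and 2661 ± 662 CPM per kb in Flox. On this scale its lowest library, LKO 3, lay above the highest library of Cyp3a11. Before division by length, LKO 3 had 3125 CPM of Cyp2e1 and 5505 CPM of Cyp3a11, so this separation depended on the lengths used. Neighbours further down the order overlapped in their library ranges. Per kb of exon Cyp3a11 was at 857 ± 165 in LKO and 492.5 ± 283 in Flox. It could not be set apart on that scale from Cyp2d26, at 568 ± 105 in LKO and 670.1 ± 108 in Flox. The means of Cyp3a11 and Cyp2d26 over the longest coding transcript, given below, lay further apart. There were 18 genes above 100 CPM per kb, 24 from 1 to 100 and 14 below 1. Lengths are of all annotated exons together, and Cyp3a11 has the longest union of the leading genes at 5093 bases. Over its longest coding transcript of 2344 bases it averaged 1466 CPM per kb over all libraries, still behind the average of Cyp2e1 at 2750. On that scale the order below Cyp2d26, at 653 CPM per kb, was another one: Cyp2c29 followed at 619, Cyp2f2 at 497, Cyp2c50 at 461 and Cyp2d10 at 439.

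**Figure D2:**
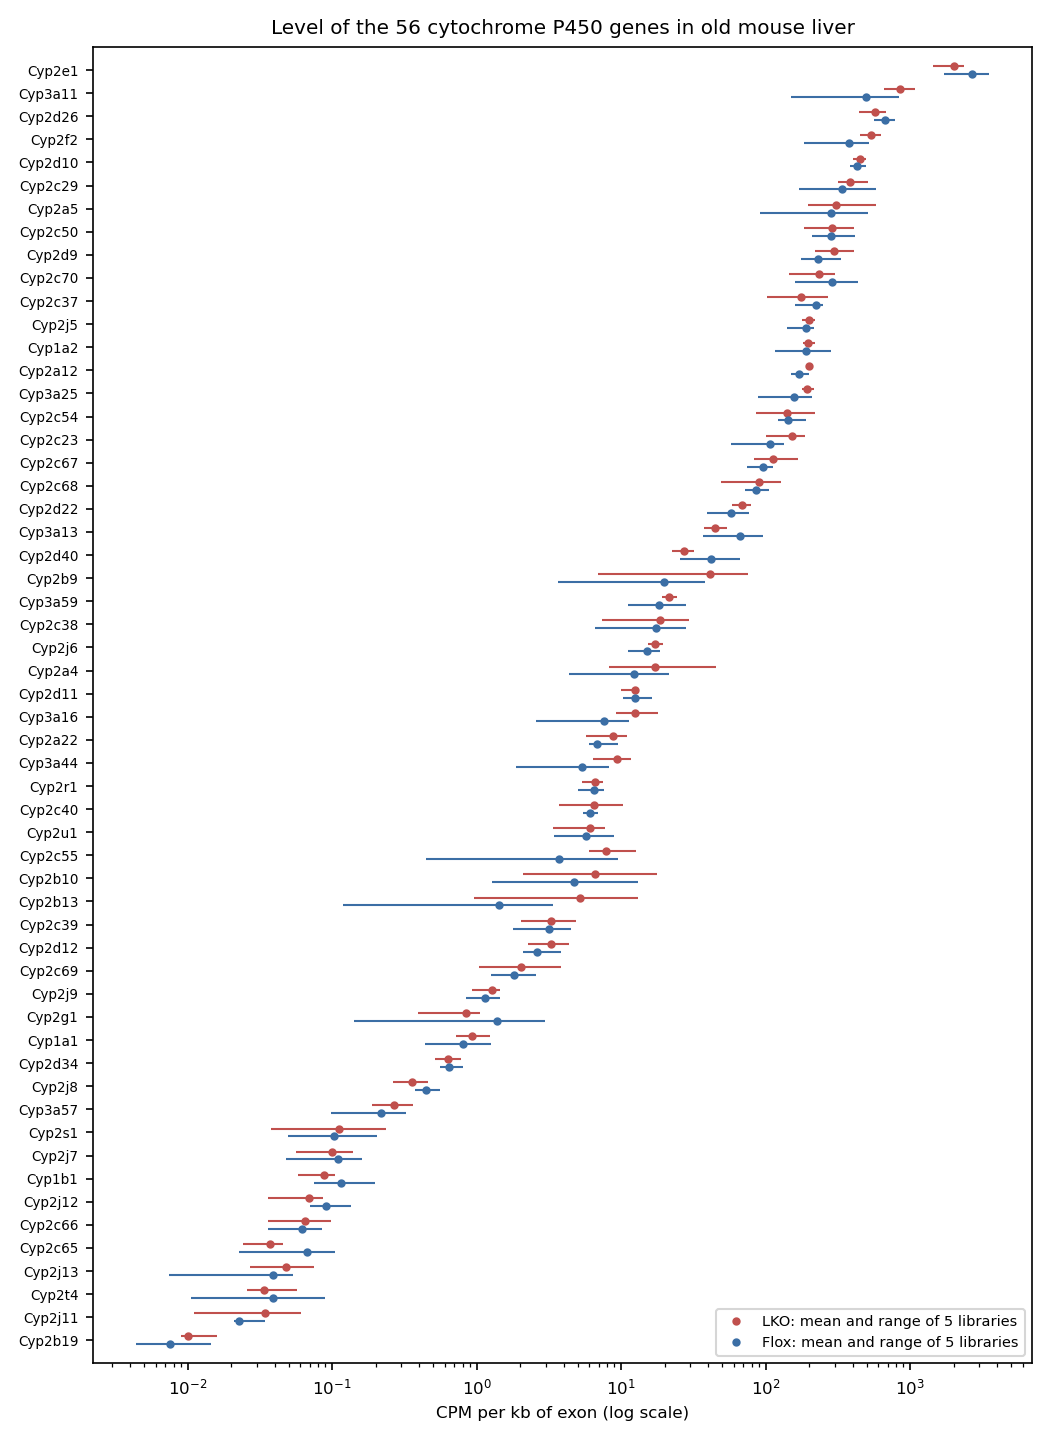
Level of each of the 56 genes in CPM per kb of exon on a log scale, as the mean (point) and range (line) of 5 LKO libraries and, under it, 5 Flox libraries; counts of 0 are left off the line. Cyp2e1 leads at 2336 CPM per kb over all libraries, and the Flox line is long for Cyp3a11, Cyp2c55 and Cyp2b13.

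The genes lie in clusters of copies, so their counts are not fully separate. The 15 Cyp2c genes lie on chromosome 19, the 8 Cyp2d genes on chromosome 15, the 8 Cyp2j genes on chromosome 4, the 7 Cyp3a genes on chromosome 5 and both Cyp1a genes on chromosome 9 (GRCm38). Chromosome 7 holds 14 members, among them the Cyp2a and Cyp2b genes, Cyp2e1 and Cyp2f2. For 21 of the 56 genes, more than 20% of the 50-base stretches of the longest coding transcript also occur in a transcript of another gene. That share was 72.1% for Cyp2c40, 54.8% for Cyp2c69 and 52.8% for Cyp2c67, whose counts are uncertain. It was 0 for 9 genes, among them Cyp2f2, Cyp2c23, Cyp2c70, Cyp3a13 and Cyp2r1. Exons of Cyp2a4, Cyp2c55, Cyp2f2, Cyp2s1, Cyp2t4 and Cyp2u1 overlap a gene on the opposite strand, and the sources used here do not say whether strand was used in counting. On the same strand, exons of Cyp2c29 and Cyp2d9 overlap a transcribed pseudogene, and those of Cyp2d9, Cyp2d10, Cyp2d11 and Cyp2d12 a microRNA gene.

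None of the P450 genes differed between the groups past the test's threshold. By edgeR's quasi-likelihood test with Benjamini-Hochberg adjustment over all 15894 genes tested, 0 of the 48 genes passed, and percent called over all genes was 0. Adjusted p-values of the 48 genes ran from 0.652 to 0.996. At an unadjusted p under 0.05 there were 4 of 48 (8.33%), against 7.51% of all genes tested, a share near the background. Higher in LKO by that rule were Cyp3a44 and Cyp2c23, where the background was 3.17%, and lower were Cyp2d40 and Cyp3a13, where it was 4.33%. None of the 48 genes had libraries that did not overlap between the groups, against 0.906% of all genes tested. DESeq2 called 0 of the 48, against 0.134% of the genes it gave an adjusted p. At an unadjusted p under 0.05 it had 10 of the 48 (20.8%), against 8.69% of the genes it gave a p, so the members' share was the larger. limma-voom with library weights also called 0, with 7 of the 48 at an unadjusted p under 0.05 (14.6%), against 6.6% of all genes. The share of members at an unadjusted p under 0.05 thus differed between the tools, and no member passed adjustment in any of them.

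The fitted levels leaned towards higher values in LKO, and the lean was lost without Flox 2 and Flox 3. Of the 48 genes, 37 had a positive log2 fold change (median 0.15), against 48.4% of all genes tested (median -0.01). Without Flox 2 and Flox 3, 18 of the 48 were positive and the median was -0.06. Leaving out LKO 1 alone, 28 of 49 tested members were positive and the median was 0.063. Without Flox 2 alone 30 of 49 were positive, and without Flox 3 alone 32 of 49. The lowest of the 10 libraries was Flox 2 or Flox 3 for 27 of the 48 genes (56.2%), against 28.3% of all genes tested. Flox 3 alone was lowest for 17. The spread was also wider in Flox: the coefficient of variation was larger there for 34 of the 48 genes (70.8%, against 59.3% of all genes), with a median of 23.6% in LKO and 33.1% in Flox.

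**Figure D3:**
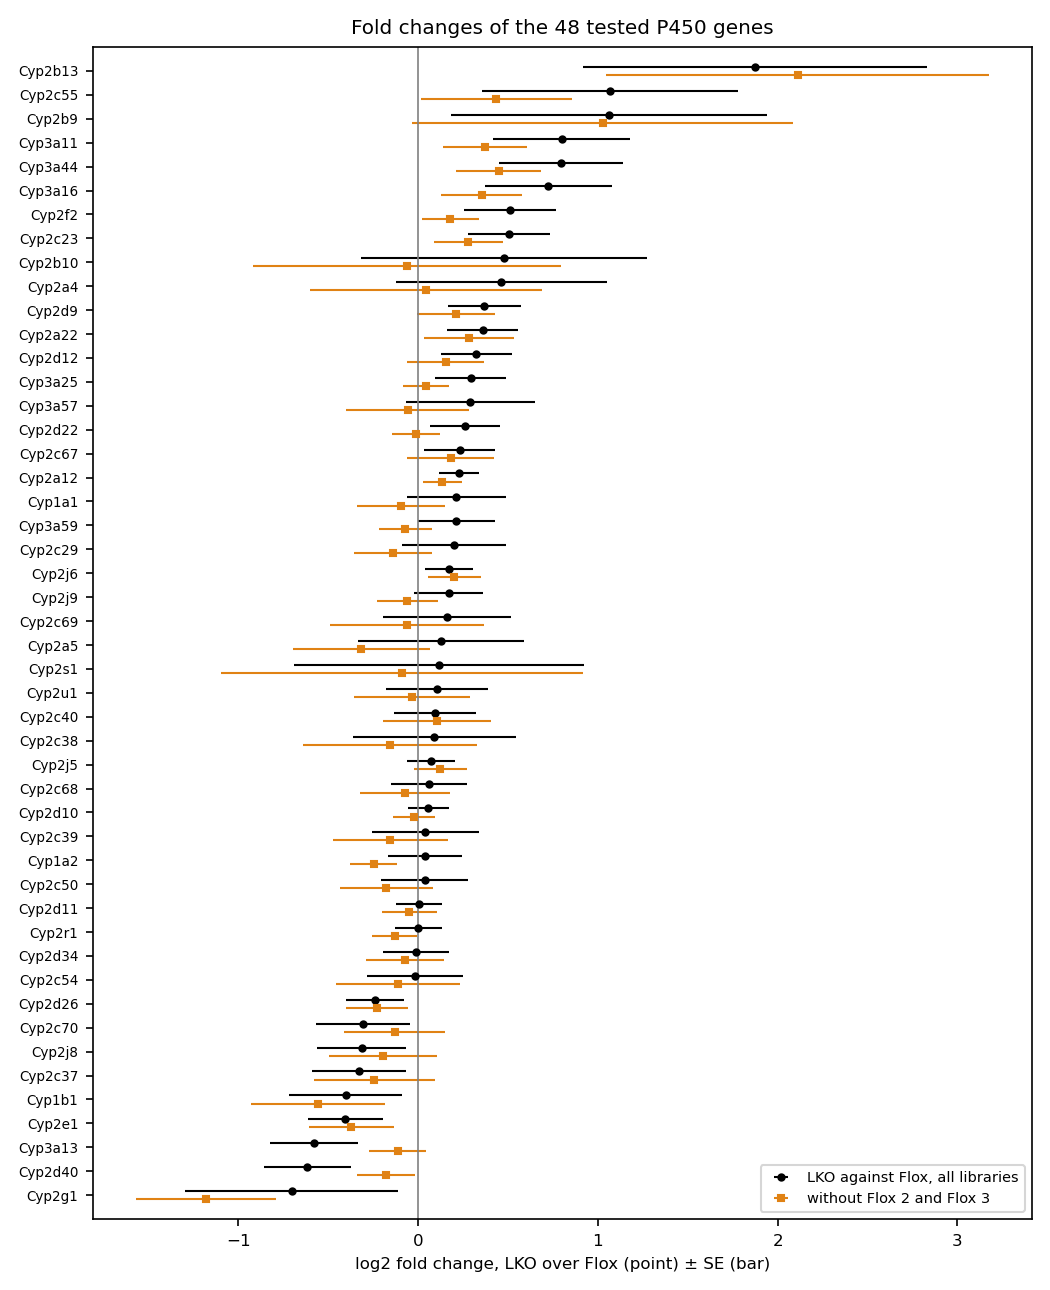
Log2 fold change of LKO over Flox with its standard error for the 48 tested genes, from all libraries (black circles) and without Flox 2 and Flox 3 (orange squares). With all libraries 37 points lie right of 0, and without those libraries 18 do; no gene passes the test in either fit.

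In the Cyp1a subfamily the means of the groups were close. Cyp1a2 (ENSMUSG00000032310, chromosome 9, 57676937 to 57683703, minus strand), the hepatic enzyme of caffeine and aromatic amines, had 369.7, 412, 389, 439.8 and 368 CPM in LKO 1 to LKO 5. In Flox 1 to Flox 5 it had 569, 282, 234.5, 422 and 417 CPM. All 5 LKO libraries lay between the low pair of Flox 2 and Flox 3 and the high Flox 1. The log2 fold change was 0.04 ± 0.21 (SE, adjusted p = 0.959, edgeR), and -0.25 ± 0.13 without Flox 2 and Flox 3. Cyp1a1, the inducible partner gene, was at 2.61 ± 0.628 CPM in LKO and 2.25 ± 0.898 CPM in Flox. Cyp1b1, which acts mostly outside the liver, had 0.444, 0.613, 0.614, 0.54 and 0.337 CPM in LKO 1 to LKO 5 and 0.662, 0.567, 0.546, 0.436 and 1.15 CPM in Flox 1 to Flox 5. Flox 5 was its highest library, and its log2 fold change was -0.40 ± 0.32 (adjusted p = 0.725, edgeR), and -0.12 without Flox 5.

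Ahr, the receptor that drives the Cyp1 genes, was at 20.7 ± 3.14 CPM in LKO and 32.2 ± 7.01 CPM in Flox. Its highest LKO library, at 24.99 CPM, lay just under its lowest Flox library, at 25.8 CPM. The log2 fold change was -0.64 ± 0.15 and did not pass adjustment (adjusted p = 0.652, edgeR; -0.45 without Flox 2 and Flox 3). The other named receptors, Rxra at -0.20 ± 0.12 and the Ahr partner Arnt at 0.15 ± 0.09 on the log2 scale, did not pass either. Of 11 tested receptors and partners, 4 were higher and 7 lower in LKO (median log2 fold change -0.14) and 0 passed. The PXR gene Nr1i2 was at 56.3 ± 6.32 CPM in LKO and 57.1 ± 2.58 CPM in Flox. The CAR gene Nr1i3 was at 9.94 ± 2.96 CPM in LKO and 12.5 ± 3.50 CPM in Flox.

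Cyp2e1 and Cyp2f2 mark opposite ends of the lobule, and their fitted differences had opposite signs. Cyp2e1 (ENSMUSG00000025479, chromosome 7, 140763739 to 140774987, plus strand), the pericentral enzyme of ethanol and acetaminophen, had 4768, 5082, 3125, 3834 and 4888 CPM in LKO 1 to LKO 5. In Flox 1 to Flox 5 it had 7626, 5549, 6317, 3695 and 5525 CPM. Of the Flox libraries, 4 lay above every LKO library and Flox 4 lay among the lowest. The log2 fold change was -0.40 ± 0.21 (adjusted p = 0.656, edgeR), and -0.37 ± 0.24 without Flox 2 and Flox 3, so it did not rest on that pair. In contrast to most members, Cyp2e1 was not low in Flox 2 or Flox 3.

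Cyp2f2 (ENSMUSG00000052974, chromosome 7, 27119909 to 27133660, plus strand), known for the activation of naphthalene and for a periportal place in liver, had 1120, 913, 1269, 1202 and 944 CPM in LKO 1 to LKO 5. In Flox 1 to Flox 5 it had 801, 564, 372, 1045 and 1037 CPM. Flox 1, Flox 2 and Flox 3 lay below all LKO libraries, whereas Flox 4 and Flox 5 lay among them. LKO over Flox gave a log2 fold change of 0.51 ± 0.25 (adjusted p = 0.652, edgeR), and 0.18 ± 0.16 without Flox 2 and Flox 3. The ratio of Cyp2f2 to Cyp2e1 within a library, in CPM per kb, does not depend on scaling between libraries. It was 0.25, 0.191, 0.433, 0.334 and 0.206 in LKO 1 to LKO 5, against 0.112, 0.108, 0.0627, 0.301 and 0.2 in Flox 1 to Flox 5. It averaged 0.283 ± 0.101 in LKO and 0.157 ± 0.0949 in Flox (SD, n = 5 each), or 0.204 in Flox without Flox 2 and Flox 3. The groups overlapped, since Flox 4 and Flox 5 lay within the LKO range.

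Genes of both zones outside the P450 family were listed as well. All 12 pericentral genes had lower fitted levels in LKO (median log2 fold change -0.44, and -0.42 without Flox 2 and Flox 3) and 0 passed. Beside Ahr, the stem cell marker Lgr5 was at -0.71 ± 0.20 and Axin2, a target of Wnt signalling, at -0.88 ± 0.25 on the log2 scale. Of 12 periportal genes, 11 had higher fitted levels in LKO (median 0.44, and 0.21 without Flox 2 and Flox 3) and 0 passed. Over all genes tested, 48.4% had higher fitted levels in LKO. Among the 11 were Hsd17b13 at 0.47 ± 0.13, Aldh1b1 at 0.90 ± 0.26 and the histidine-degrading Hal at 0.44 ± 0.16. Pck1 went the other way, at -0.47 ± 0.20, and at -0.37 without Flox 2 and Flox 3. These lists were drawn up with earlier results of the same libraries known.

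**Figure D4:**
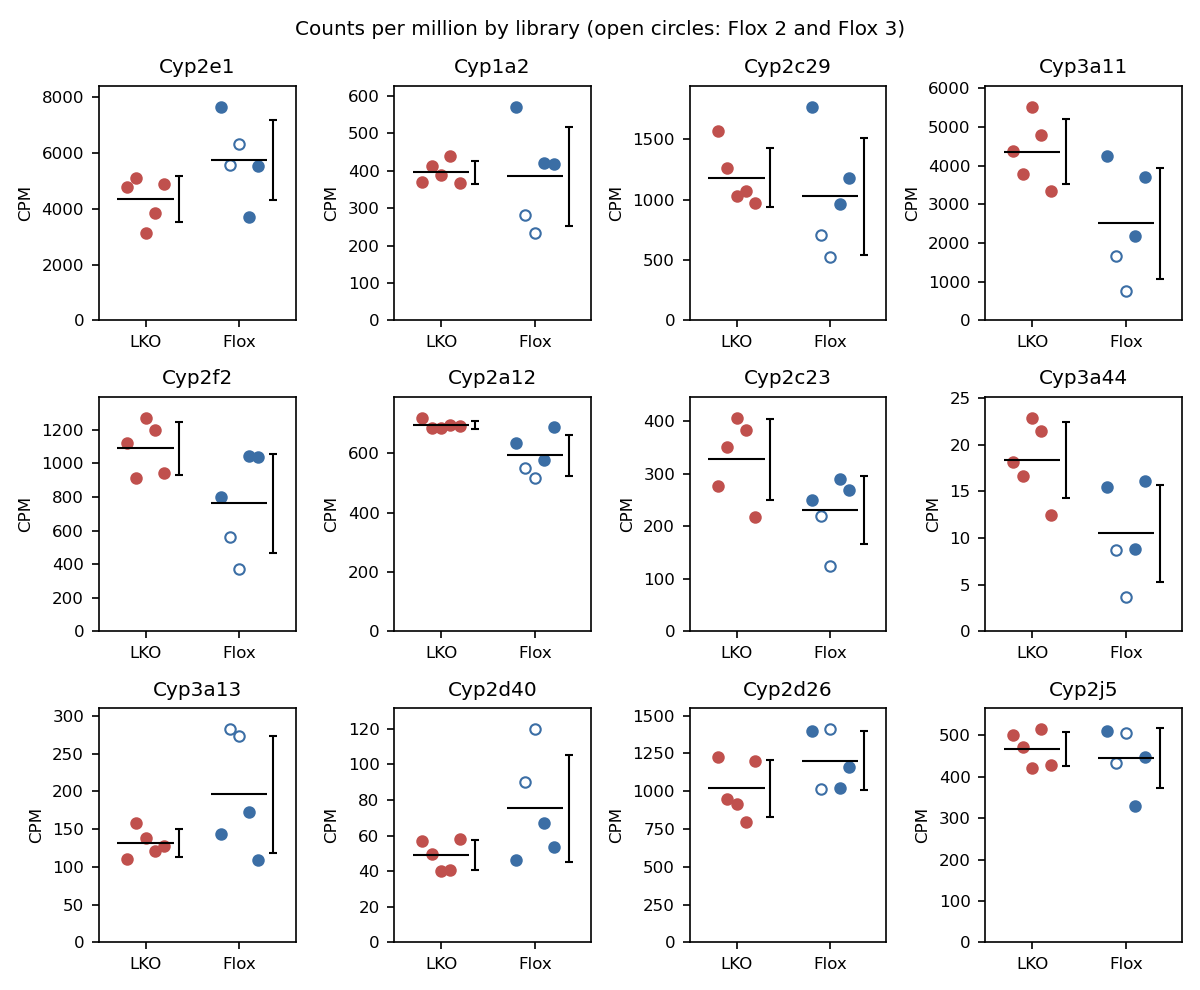
CPM of 12 P450 genes in each of the 5 LKO (left) and 5 Flox (right) libraries, with the mean (horizontal line) and SD (bar) of each group; open circles are Flox 2 and Flox 3. The open circles are the lowest points of the Flox group for Cyp3a11, Cyp2c29 and Cyp1a2 and the highest for Cyp3a13 and Cyp2d40.

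Summed over its genes, the Cyp3a subfamily reached lower shares in Flox than in LKO, with overlap. It took 0.389 to 0.609% of the LKO libraries and 0.127 to 0.473% of the Flox libraries. Cyp3a11 (ENSMUSG00000056035, chromosome 5, 145854426 to 145879964, minus strand), the main drug-oxidising Cyp3a enzyme of mouse liver and a classical PXR target, had 4381, 3788, 5505, 4788 and 3354 CPM in LKO 1 to LKO 5. In Flox 1 to Flox 5 it had 4246, 1669, 762, 2169 and 3695 CPM. Flox 2, Flox 3 and Flox 4, the libraries with the 3 highest acute phase sums, were the ones below all LKO libraries. The log2 fold change was 0.80 ± 0.38 (adjusted p = 0.652, edgeR) and 0.37 ± 0.23 without Flox 2 and Flox 3, and whether the acute phase difference has a part in it was not tested.

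Cyp3a44, a form known as female-biased, had 18.1, 16.7, 22.8, 21.4 and 12.5 CPM in LKO 1 to LKO 5 and 15.4, 8.70, 3.69, 8.79 and 16.1 CPM in Flox 1 to Flox 5. As for Cyp3a11, Flox 2, Flox 3 and Flox 4 lay below all LKO libraries, and the other Flox libraries lay among them. It had a log2 fold change of 0.80 ± 0.35 (unadjusted p = 0.0431, adjusted p = 0.652, edgeR), and 0.45 ± 0.24 without Flox 2 and Flox 3. Cyp3a16, a form of fetal and newborn liver, had 20.2, 21.8, 31.0, 19.2 and 16.04 CPM in LKO 1 to LKO 5 and 19.7, 10.2, 4.43, 12.1 and 19.0 CPM in Flox 1 to Flox 5. Its log2 fold change was 0.72 ± 0.35 (adjusted p = 0.652, edgeR), and 0.36 without Flox 2 and Flox 3. Cyp3a25 and Cyp3a59 also lay below all LKO libraries in Flox 2, Flox 3 and Flox 4. Cyp3a25 had 371.6 to 449.7 CPM in LKO, against 285, 183 and 320.4 CPM in these 3 Flox libraries. Cyp3a59 had 38.6 to 49.0 CPM in LKO, against 27.0, 22.4 and 35.1 CPM in them. Of these 5 genes, 28% of the stretches of Cyp3a59, 26.8% of those of Cyp3a25, 26.5% of those of Cyp3a44, 14.8% of those of Cyp3a11 and 10.7% of those of Cyp3a16 also occur in other genes.

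Cyp3a13, best known from the intestine, was high in the libraries where Cyp3a11 was low. It had 111, 159, 139, 122 and 127.5 CPM in LKO 1 to LKO 5 and 143, 282, 273, 173 and 109.8 CPM in Flox 1 to Flox 5. Flox 2 and Flox 3 were its highest libraries, where the other 6 tested Cyp3a genes had their lowest level in Flox 3. It had a log2 fold change of -0.58 ± 0.24 (unadjusted p = 0.0353, adjusted p = 0.652, edgeR) and -0.11 ± 0.16 without Flox 2 and Flox 3. None of its 50-base stretches occurs in another gene. Of the remaining Cyp3a genes, Cyp3a25 was at 401 ± 32.0 CPM in LKO and 327.5 ± 102 CPM in Flox. Cyp3a59 was at 42.7 ± 4.42 CPM in LKO and 36.8 ± 13.6 CPM in Flox. Cyp3a57 was at 0.533 ± 0.166 CPM in LKO and 0.432 ± 0.179 CPM in Flox.

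Promoters are shown for Cyp3a11, Cyp3a44 and Cyp3a16, 3 of the 5 genes that ran low in the same libraries, because they can be compared for the motifs of the receptors that bind Cyp3a genes. They come from RefSeq (GRCm38.p6), 250 bases before to 50 bases after the RefSeq start, 5′ to 3′ on the minus strand: chr5:145879805-145880104 for Cyp3a11, chr5:145805825-145806124 for Cyp3a44 and chr5:145469674-145469973 for Cyp3a16. Capitals mark matches to the nuclear receptor motifs AGGTCA or AGTTCA, or to the TATA box motif TATAAA, on either strand. The run TGAACT in Cyp3a11 is such a match on the other strand.
Cyp3a11: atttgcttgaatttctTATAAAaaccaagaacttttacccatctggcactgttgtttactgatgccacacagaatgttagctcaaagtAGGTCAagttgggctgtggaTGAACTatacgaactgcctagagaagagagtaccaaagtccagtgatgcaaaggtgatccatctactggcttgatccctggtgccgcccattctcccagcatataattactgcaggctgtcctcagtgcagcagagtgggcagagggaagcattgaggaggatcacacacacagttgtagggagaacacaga
Cyp3a44: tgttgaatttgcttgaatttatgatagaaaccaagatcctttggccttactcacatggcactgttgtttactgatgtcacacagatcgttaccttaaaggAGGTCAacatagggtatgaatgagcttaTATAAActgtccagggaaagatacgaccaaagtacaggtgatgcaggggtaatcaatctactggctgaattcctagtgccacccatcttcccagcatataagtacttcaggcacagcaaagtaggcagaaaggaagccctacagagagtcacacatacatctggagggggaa
Cyp3a16: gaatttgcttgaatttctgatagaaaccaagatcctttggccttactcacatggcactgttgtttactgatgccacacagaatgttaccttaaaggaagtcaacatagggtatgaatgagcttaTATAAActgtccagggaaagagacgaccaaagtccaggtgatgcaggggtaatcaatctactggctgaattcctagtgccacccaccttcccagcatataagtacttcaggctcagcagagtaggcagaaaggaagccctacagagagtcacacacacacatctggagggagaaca
AGGTCA was found in Cyp3a11 and Cyp3a44, and TATAAA in these 3, each time in the earlier part of the window, well before the RefSeq start. The windows of Cyp3a25 and Cyp3a59 held AGGTCA and no TATAAA. RefSeq promoters were matched for 48 of the 56 genes, not the same 48 as tested, since Cyp2b19, Cyp2c65 and Cyp2t4 are among them. AGGTCA, a motif of nuclear receptors, occurred in 17 of these 48 (35.4%) and in 16% of all 27025 promoters of that length. TATAAA occurred in 25 (52.1%, against 14.2%), AGTTCA in 5 (10.4%, against 14%), GTTAAT, part of the HNF1 motif, in 6 (12.5%, against 7.2%), and GCGTG, the core of the Ahr element, in 8 (16.7%, against 32.5%). Both strands were searched, the motifs searched may overlap each other, and a match is a description of letters only. The windows of copies such as Cyp2b9 and Cyp2b13, or Cyp2a4 and Cyp2a5, are nearly the same. The shares of members therefore count similar sequence more than once.

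Cyp2c was the largest subfamily, with 15 genes. It took 0.289 to 0.474% of the LKO libraries and 0.283 to 0.488% of the Flox libraries. Of 13 tested genes, 10 had higher fitted levels in LKO (median log2 fold change 0.09), and without Flox 2 and Flox 3 there were 4 (median -0.11). Cyp2c29 (ENSMUSG00000003053, chromosome 19, 39269405 to 39330713, plus strand), an epoxygenase of arachidonic acid, had 1570, 1258, 1034, 1069 and 969 CPM in LKO 1 to LKO 5. In Flox 1 to Flox 5 it had 1764, 707, 521, 964 and 1180 CPM. Flox 1 was above and Flox 2, Flox 3 and Flox 4 were below all LKO libraries, and the log2 fold change was 0.20 ± 0.29 (adjusted p = 0.847, edgeR).

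Cyp2c23, another arachidonic acid epoxygenase, shares no 50-base stretch with other genes. It had 276.9, 351, 406, 384 and 219 CPM in LKO 1 to LKO 5 and 249.9, 219.9, 125, 289.8 and 269 CPM in Flox 1 to Flox 5. LKO 2, LKO 3 and LKO 4 lay above all Flox libraries, and LKO 5 lay below 4 of them. The log2 fold change was 0.50 ± 0.23 (unadjusted p = 0.0477, adjusted p = 0.652, edgeR) and 0.28 ± 0.19 without Flox 2 and Flox 3. Cyp2c70, which makes muricholic acids in mice, had its highest level in Flox 2 at 861 CPM and averaged 464 ± 121 CPM in LKO and 574 ± 206 CPM in Flox (log2 fold change -0.31 ± 0.26, and -0.13 without Flox 2 and Flox 3). Its sign turned under 1 alternative, at 0.16. Cyp2c55 had 12.0 to 25.1 CPM in LKO and 0.895 to 19.0 CPM in Flox, a 21.2-fold range between Flox libraries.

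The neighbours Cyp2c37, Cyp2c50 and Cyp2c54, which share 25.7 to 30.7% of their stretches, varied more within LKO than Cyp2c29. Cyp2c50 was at 846 ± 270.2 CPM in LKO and 824 ± 242 CPM in Flox. Cyp2c54 was at 252 ± 109.9 CPM in LKO and 255 ± 51.4 CPM in Flox. Cyp2c37 was at 322 ± 136 CPM in LKO and 404 ± 67.8 CPM in Flox. All 3 had LKO 1 as their highest LKO library. Cyp2c38, Cyp2c39, Cyp2c40, Cyp2c67, Cyp2c68 and Cyp2c69 had log2 fold changes from 0.04 to 0.23.

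In the Cyp2a subfamily all 4 genes had positive log2 fold changes (median 0.29, and 0.09 without Flox 2 and Flox 3). Cyp2a12, which hydroxylates testosterone, had the smallest coefficient of variation in LKO of the 48 tested genes. It had 717, 685, 686, 696 and 692 CPM in LKO 1 to LKO 5, a coefficient of variation of 1.89%, and 635, 549, 517, 576 and 688 CPM in Flox 1 to Flox 5, one of 11.6%. Only Flox 5 reached the LKO range, and the log2 fold change was 0.23 ± 0.11 (adjusted p = 0.652, edgeR; 0.13 ± 0.11 without Flox 2 and Flox 3). Cyp2a5, the coumarin hydroxylase, had 461, 664, 450.5, 409.6 and 1209 CPM in LKO 1 to LKO 5 and 768, 189.8, 344, 558 and 1060 CPM in Flox 1 to Flox 5. LKO 5 and Flox 5 were high, and the log2 fold change was 0.13 ± 0.46 (adjusted p = 0.942, edgeR). Cyp2a4, a female-biased steroid hydroxylase that shares 38% of its stretches, mostly with Cyp2a5, was also highest in LKO 5 at 78.7 CPM, against 14.2 to 22.4 CPM in the other LKO libraries and 7.53 to 37.3 CPM in Flox.

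The Cyp2b genes varied more between libraries of a group than between the groups. Cyp2b9, a female-biased gene, had 129.7, 84.4, 17.6, 13.0 and 143 CPM in LKO 1 to LKO 5, a 10.97-fold range. In Flox 1 to Flox 5 it had 71.9, 6.88, 64.4, 7.12 and 35.5 CPM. High and low libraries were found in both groups, at a log2 fold change of 1.06 ± 0.88 (adjusted p = 0.745, edgeR). Its neighbour Cyp2b13 had 10.9, 9.15, 2.31, 1.81 and 24.4 CPM in LKO 1 to LKO 5 and 2.73, 0.223, 6.31, 0.454 and 3.60 CPM in Flox 1 to Flox 5. The same libraries were lowest for both genes in each group: LKO 3 and LKO 4, and Flox 2 and Flox 4. Of the stretches of Cyp2b13, 27.3% also occur in other genes, and 11.2% of those of Cyp2b9 do, mostly in Cyp2b13. The counts of the 2 genes are therefore not fully separate. The log2 fold change of Cyp2b13 was the largest of the 48 genes at 1.87 ± 0.96 (adjusted p = 0.656, edgeR), and 2.11 ± 1.07 without Flox 2 and Flox 3. Without LKO 5 it was 1.20. Cyp2b10, the classical CAR target, had 4.40 to 37.3 CPM in LKO and 2.71 to 27.6 CPM in Flox, with its highest level in LKO 1 and Flox 1.

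Other sex-biased genes were read in the same libraries. The male-biased list summed to 19050 and 19250 CPM in LKO 3 and LKO 4, where Cyp2b9 and Cyp2b13 were lowest, and to 3741, 7301 and 3911 CPM in LKO 1, LKO 2 and LKO 5. In Flox it summed to 8454 and 10210 CPM in Flox 2 and Flox 4, and to 3944, 2401 and 5717 CPM in Flox 1, Flox 3 and Flox 5. In both groups the libraries lowest in Cyp2b9 had the highest of these sums. In LKO 3 Serpina1e and Mup20 carried the sum, at 10770 and 5788 CPM. Serpina1e was at 5175 CPM in Flox 2 and 7067 CPM in Flox 4. Mup20 was at 1309 CPM in Flox 2 and 1844 CPM in Flox 4, against 1834 CPM in Flox 5. Not all listed genes followed the sums. Elovl3 was highest of its group in LKO 1 at 285.6 CPM and in Flox 1 at 387.9 CPM, and lowest of the Flox libraries in Flox 4 at 31.6 CPM. Among Flox libraries, Cyp2d9 was highest in Flox 5 at 889.7 CPM. Nor did all female-biased genes run as Cyp2b9 did: Cyp3a16, Cyp3a44 and Cyp3a41a were highest of all libraries in LKO 3, at 31.0, 22.8 and 5.755 CPM. The far more abundant Cyp3a11 was highest there too, at 5505 CPM. Cyp3a16 shares stretches mostly with Cyp3a11, and Cyp3a11 and Cyp3a44 share theirs mostly with Cyp3a41a. Whether reads of Cyp3a11 were counted for these genes was not tested, so their counts are not separate from it. Between the groups, 10 of 12 male-biased genes and 9 of 10 tested female-biased genes had higher fitted levels in LKO, and 0 passed. Of the 15 female-biased genes listed, 8 are P450 members described here or stand in another list. The named ones were the male-biased Cyp4a12a at 1.0 ± 0.23 and Mup20 at 1.35 ± 0.54, and the female-biased Cyp3a41a at 0.90 ± 0.34, on the log2 scale. Of the growth hormone axis 5 of 8 tested genes were higher and 0 passed, with the receptor Ghr at 0.37 ± 0.16, its feedback inhibitor Socs2 at 1.09 ± 0.66 and Stat5a at -0.29 ± 0.22.

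**Figure D5:**
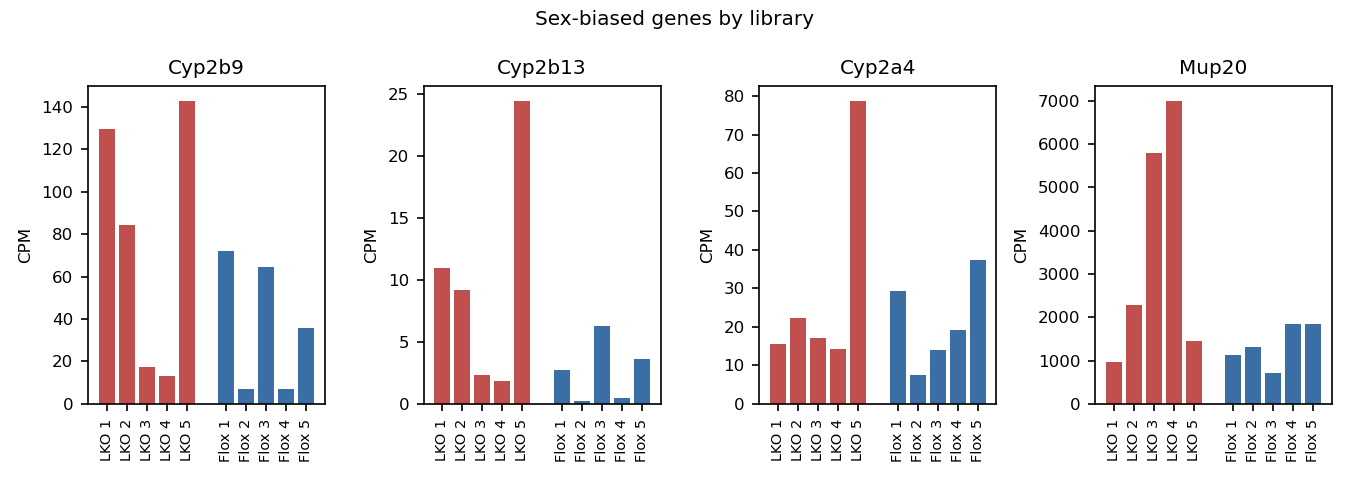
CPM of the female-biased Cyp2b9, Cyp2b13 and Cyp2a4 and the male-biased Mup20 in each LKO (left, red) and Flox (right, blue) library. Mup20 is highest, at 5788 and 6991 CPM, in LKO 3 and LKO 4, where Cyp2b9 is at 17.6 and 13.0 CPM.

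The Cyp2d genes took 0.26 to 0.31% of the LKO libraries and 0.254 to 0.334% of the Flox libraries. Cyp2d26, the subfamily's leader, had 1227, 949.8, 916, 798 and 1202 CPM in LKO 1 to LKO 5 and 1399, 1015, 1409, 1021 and 1160 CPM in Flox 1 to Flox 5. The ranges overlapped, at a log2 fold change of -0.24 ± 0.16 (adjusted p = 0.689, edgeR). Cyp2d40 had 56.9, 49.8, 40.3, 40.8 and 58.1 CPM in LKO 1 to LKO 5 and 46.0, 90.03, 119.7, 66.9 and 53.8 CPM in Flox 1 to Flox 5. As with Cyp3a13, Flox 2 and Flox 3 were its highest libraries. It had the smallest unadjusted p of the 48 genes (0.0277, adjusted p = 0.652, edgeR) at a log2 fold change of -0.61 ± 0.24, which was -0.18 ± 0.16 without Flox 2 and Flox 3. Cyp2d9, the male-biased testosterone hydroxylase, was at 793 ± 180.3 CPM in LKO and 614 ± 169 CPM in Flox. Cyp2d10 was at 737 ± 54.3 CPM in LKO and 708 ± 74.6 CPM in Flox, and Cyp2d22 at 269.6 ± 30.9 CPM in LKO and 225 ± 69.1 CPM in Flox. Cyp2d11, Cyp2d12 and Cyp2d34 had log2 fold changes of 0.01, 0.32 and -0.01.

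The Cyp2j genes, epoxygenases of fatty acids, were led by Cyp2j5. It had 499.6, 471, 422, 514 and 428 CPM in LKO 1 to LKO 5 and 509, 432, 505, 329.5 and 447 CPM in Flox 1 to Flox 5. Flox 4 was its lowest library, and the log2 fold change was 0.07 ± 0.13 (adjusted p = 0.892, edgeR). Cyp2j6 was at 61.7 ± 5.64 CPM in LKO and 54.7 ± 11.1 CPM in Flox. Cyp2j9 was at 4.27 ± 0.693 CPM in LKO and 3.79 ± 0.923 CPM in Flox. Cyp2j8 was at 0.538 ± 0.119 CPM in LKO and 0.671 ± 0.106 CPM in Flox. The other 4 Cyp2j genes were below the filter.

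Among the remaining subfamilies of 1 gene each, none passed the test. Cyp2r1, which hydroxylates vitamin D in the liver, had 15.1, 12.9, 14.1, 15.96 and 11.3 CPM in LKO 1 to LKO 5 and 14.3, 13.0, 10.7, 15.0 and 16.1 CPM in Flox 1 to Flox 5, at a log2 fold change of 0.00 ± 0.13. Cyp2u1, a fatty acid hydroxylase, had 37.6, 24.7, 40.7, 40.2 and 17.6 CPM in LKO 1 to LKO 5 and 25.5, 32.5, 18.1, 26.6 and 46.7 CPM in Flox 1 to Flox 5 (log2 fold change 0.11 ± 0.28). For both genes the groups overlapped over most of their range. The olfactory Cyp2g1 had 0.843, 2.26, 2.12, 1.74 and 2.17 CPM in LKO 1 to LKO 5 and 1.95, 0.304, 2.16, 6.33 and 4.09 CPM in Flox 1 to Flox 5 (log2 fold change -0.70 ± 0.59). Flox 2 was lowest and Flox 4 highest. Without Flox 2 and Flox 3 its log2 fold change was -1.18 ± 0.39 at an adjusted p of 0.999 (edgeR), and without Flox 4 it was -0.22. The epithelial Cyp2s1 had 1.18, 0.211, 0.381, 0.822 and 0.187 CPM in LKO 1 to LKO 5 and 1.012, 0.243, 0.524, 0 and 0.767 CPM in Flox 1 to Flox 5 (log2 fold change 0.12 ± 0.81). A count of 0 in Flox 4 allows up to 3 counts. Cyp2t4 had 3, 2, 0, 4 and 4 counts in LKO 1 to LKO 5 and 7, 0, 1, 1 and 8 counts in Flox 1 to Flox 5 and was not tested.

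Genes that serve the P450 enzymes were read beside them. Of 6 partners, 5 had higher fitted levels in LKO (median log2 fold change 0.17, and 0.02 without Flox 2 and Flox 3) and 0 passed. The reductase Por was at 310.3 ± 166 CPM in LKO and 309.1 ± 53.7 CPM in Flox. The largest difference was that of Cyb5r3, the reductase of cytochrome b5, at 895 ± 99.5 CPM in LKO and 667 ± 293 CPM in Flox, followed by Cyb5b at 0.25 ± 0.20 and Pgrmc2 at 0.23 ± 0.19 on the log2 scale. Of 10 haem genes, 3 were higher and 7 lower and 0 passed, with Uros at -0.34 ± 0.12 and Hmox1 at -0.52 ± 0.31. Of 15 liver transcription factors, 9 were higher and 0 passed, with Cebpb at -0.56 ± 0.26, Onecut1 at 1.29 ± 0.68 and Nr1d1 at 0.61 ± 0.38. Another factor of this list, Dbp, split the libraries in a way unlike the acute phase genes. It had 0.798, 1.68 and 1.97 CPM in Flox 1 to Flox 3 and 3.13 CPM in LKO 1, against 34.5 to 110.9 CPM elsewhere. The part of this split in the P450 values was not tested. The other cytochromes P450 of the table numbered 38, of which 29 were tested. Of these 18 had higher fitted levels in LKO (median 0.13) and 13 did without Flox 2 and Flox 3 (median -0.05), so the shift with the libraries used was not limited to families 1 to 3. DESeq2 called 1 of the 29, against 0.134% of the genes it gave an adjusted p, and edgeR called 0. For 1 of the 29 the groups did not overlap, against 0.906% of all genes tested. That gene was Cyp4a12a, at 159 to 270 CPM in LKO and 66.05 to 147 CPM in Flox.

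Markers of other cells had fitted differences of differing size, and their part in the P450 values was not tested. Except for the red cell markers, the summed levels of the groups overlapped. Over all genes tested, 48.4% had higher fitted levels in LKO. Red cell markers were higher in LKO for 7 of 7 tested genes, with summed levels of 450 to 882 CPM in LKO and 224 to 398 CPM in Flox. Lymphocyte markers were lower for 6 of 8 (2.90 to 7.15 CPM in LKO, 5.004 to 10.6 CPM in Flox), and Kupffer cell markers for 8 of 8 (53.8 to 448 CPM in LKO, 82.6 to 514 CPM in Flox). Endothelial markers were lower for 5 of 8 (96.1 to 143 CPM in LKO, 105 to 164 CPM in Flox) and stellate markers for 5 of 8 (155 to 217 CPM in LKO, 109 to 247 CPM in Flox). Neutrophil markers were lower for 4 of 5 and summed to 1.84 to 22.7 CPM in LKO and 0.841 to 21.6 CPM in Flox, and cholangiocyte markers were higher for 3 of 5 and summed to 27.7 to 40.1 CPM in LKO and 30.01 to 41.7 CPM in Flox. None of these genes passed the test.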

How the data were processed

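Liver RNA was measured in 10 libraries, 5 LKO and 5 Flox. The deposited table holds raw whole-number counts per Ensembl gene, as its header and values show, and the authors did not normalise these counts. Per the submitters' processing notes, STAR 2.5.1a, featureCounts 1.4.6-p5 of Subread, bcl2fastq and the build GRCm38 were used. No source used here gives the annotation release, the strand setting or how multi-mapped reads were counted. LKO columns are numbered 1 to 5 and LKO titles 6 to 10, so LKO libraries are called by column number.

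After 287 repeated lines were dropped, 55487 genes remained. Genes were kept with filterByExpr and scaling used TMM (factors 0.963 to 1.04). The groups were fitted with no covariate in edgeR 4.0.16 (R 4.3.3, quasi-likelihood, robust, two-sided), with Benjamini-Hochberg adjustment over 15894 genes at a threshold of 0.05. The fit was tested on simulated data. Mean chi-square per gene was 37 to 687 over 45 pairs of libraries, so no pair agreed within sampling noise. Counting floors cover counting error only.

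The members, gene lists and tests were chosen with earlier results of these data known. Values per library are given for Cyp2e1, Cyp1a2, Cyp2c29, Cyp3a11, the gene with the highest level per kb in each subfamily and the 10 genes with the smallest unadjusted p. Up to 3 genes with the smallest unadjusted p are named in each pathway list, except for 1 gene that is not reported here, and other genes named were chosen after their values were seen. Of 12 hepatocyte markers, 11 were found by symbol. Positions, exon lengths and transcripts are those of GENCODE M21. Alternatives were RLE size factors, library totals, no filter, DESeq2 1.42.0, limma-voom (limma 3.58.1), a replicate block, a count minimum of 100, and fits without single libraries, without Flox 2 and Flox 3, and without Flox 2, Flox 3 and Flox 4.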

Additional observations from a re-analysis of the deposited data

Results flagged for a closer look

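In 7 of 96 groups of 5 libraries (7.29%), 1 library lay far from the other 4, where chance gives about 1 in 20. Cyp2a4 was at 78.7 CPM in LKO 5, against 14.2 to 22.4 CPM in the other LKO libraries. Cyp2c55 was at 25.1 CPM in LKO 3, against 12.0 to 14.4 CPM. Cyp2d11 was at 15.97 CPM in LKO 2, against 20.7 to 20.98 CPM. In LKO 1, Cyp2j9 was at 3.08 CPM, against 4.37 to 4.88 CPM, and Cyp2g1 at 0.843 CPM, against 1.74 to 2.26 CPM. Cyp2a22 was at 32.9 CPM in Flox 1, against 20.7 to 21.8 CPM in the other Flox libraries. Cyp2c37 was at 289.8 CPM in Flox 5, against 402 to 454 CPM.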

How the results depend on the processing

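No alternative run called any of the P450 genes. The smallest adjusted p among them ran from 0.358 to 0.993 when single libraries were left out, by edgeR's quasi-likelihood test. With the column number as a replicate block, 0 members were called, the smallest adjusted p was 0.506 and 1535 genes had an unadjusted p under 0.05, against 1193 without the block. The titles give the groups no shared number, and same-numbered columns deviated together with correlations of 0.0736 to 0.354, with 2 of the 5 numbers matching best.

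The median log2 fold change of the members, 0.15, was -0.058 without Flox 2 and Flox 3 and -0.075 without Flox 2, Flox 3 and Flox 4, each over 49 tested members. It was 0.063 to 0.26 when single libraries were left out. The difference in summed share, 0.0803 percentage points, was -0.286 without Flox 2, Flox 3 and Flox 4, and 0.0076 to 0.203 when single libraries were left out, lowest without Flox 3. The cause was not tested. Under library totals 35 of 48 members were positive, and under limma-voom 29.

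Without Flox 2 and Flox 3, log2 fold changes were negative for Cyp2c29 (-0.14), Cyp2a5 (-0.32), Cyp2u1 (-0.034), Cyp2r1 (-0.13), Cyp1a2 (-0.25) and Cyp2s1 (-0.09). Without Flox 4 as well they were -0.31 for Cyp2c29, -0.51 for Cyp2a5, -0.16 for Cyp2u1, -0.13 for Cyp2r1, -0.31 for Cyp1a2, -0.67 for Cyp2s1, -0.025 for Cyp2j5 and 0.064 for Cyp3a13. Cyp2r1 was at -0.038 under library totals and -0.036 under limma-voom. Over all 48 members the sign turned under at least 1 alternative for 27. Of the members with values per library, with single libraries left out, it turned for Cyp2a5 (-0.23 to 0.46), Cyp2r1 (-0.074 to 0.073), Cyp1a2 (-0.091 to 0.22), Cyp2s1 (-0.36 to 0.53), Cyp2u1 (-0.027 to 0.33) and Cyp2j5 (-0.021 to 0.12), and not for Cyp2c29 (0.04 to 0.49) or Cyp3a13 (-0.73 to -0.41).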
